A study of Mus musculus with 9 samples.

Results

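Primordial and early follicle oocytes rely on a small set of germ cell regulators, and 10 of them were followed in RNA of whole mouse ovary: the RNA-binding and germ granule genes Ddx4, Dazl, Mael and Elavl2, the transcription regulators Figla, Nobox, Sohlh1, Lhx8 and Taf4b, and the ubiquitin hydrolase gene Uchl1. They were taken by symbol from the FPKM table (fragments scaled by transcript length and library size, so that levels of different genes can be compared), in which all 10 had a row among 22544 genes and assembled loci. The rule uses no measured value, but the list was chosen with earlier results of these data known. All 10 passed the filter of at least 1 FPKM in at least 3 of 9 libraries, as did 13338 rows in total. The 9 libraries were polyadenylated RNA of ovary, 3 in each of 3 groups. NC was the reference group, whose labels name neither agent. CTX, the usual abbreviation of cyclophosphamide, an alkylating drug that injures follicles, was the second group. The group labelled HBOT combined CTX with hyperbaric oxygen according to the series design. The sources used here name no strain, age, dose or schedule. The labels do not say that libraries of a group came from different animals, so the tests measure only the spread between these libraries, which may be technical.

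A primordial follicle holds a small oocyte arrested in meiosis, enclosed by flat pregranulosa cells, and these follicles form the ovarian reserve. FIGLA, SOHLH1, LHX8 and NOBOX are transcription factors without which oocytes are lost around the primordial stage or do not grow, and genes of the egg coat and of oocyte growth factors are among those that depend on them. DDX4 and DAZL act on RNA in germ cells from fetal life onward, so their transcripts mark oocytes of every stage and not the primordial stage alone. In whole ovary a difference in the number of oocytes cannot be told apart from a difference in RNA per oocyte.

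The level differed greatly between the 10 genes. Uchl1, which encodes an abundant ubiquitin hydrolase of oocytes and neurons, was the highest, at a mean of 71.2 FPKM over the 9 libraries. Nobox followed at 8.62 FPKM, Taf4b at 4.97 FPKM and Lhx8 at 2.47 FPKM, and each of these 4 genes lay above the next in 9 of 9 libraries. The other 6 ran from 2.07 FPKM (Elavl2) down through Ddx4 (1.90 FPKM), Dazl (1.75 FPKM), Mael (1.46 FPKM) and Figla (1.19 FPKM) to Sohlh1 (0.845 FPKM). Among those 6 each gene lay above the next in only 5 to 7 of the 9 libraries, so the order of neighbours is not resolved. Oocyte RNA was clearly present in every library: the 20 listed genes of growing oocytes summed to between 351 and 809 FPKM, and none of the 20 stayed under 1 FPKM throughout. Genes of meiotic chromosomes were scarce, 13 of 18 staying under 1 FPKM in all 9 libraries and Stra8, which starts meiosis in the fetal ovary, being listed at 0 in all.

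HBOT replicate 2 stood apart from the rest of the series. There 1637 of the 13338 genes deviated by over 1 log2 unit from the average of the remaining 8 libraries, a count that ran from 173 to 347 elsewhere and was next highest in CTX replicate 1. Values without these libraries are given below beside the results that they moved most.

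The transcription factors of the early oocyte did not share 1 pattern. Nobox (ENSMUSG00000029736), a homeobox factor needed for the growth of primordial oocytes, was at 7.26, 5.79 and 6.48 FPKM in NC, at 10.2, 10.4 and 6.70 FPKM in CTX and at 9.94, 10.7 and 10.03 FPKM in HBOT. All HBOT libraries and a pair of the CTX libraries lay above NC, while CTX replicate 3 lay within the NC range. The means were 6.51 ± 0.735 FPKM in NC, 9.11 ± 2.09 in CTX and 10.2 ± 0.425 in HBOT (SD, n = 3 each). On the log2(FPKM + 1) scale Nobox was higher by 0.41 in CTX than in NC (SE 0.17, adjusted p = 0.604 by limma) and by 0.58 in HBOT than in NC (SE 0.17, adjusted p = 0.313 by limma), and neither passed the threshold of 0.05.

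Lhx8, a LIM homeobox factor that keeps oocytes alive at this stage, had the same shape at a lower level. It was at 2.21, 1.95 and 1.96 FPKM in NC, at 2.98, 2.74 and 1.90 in CTX, and at 2.84, 3.05 and 2.64 in HBOT. CTX replicate 3 was again at the NC level and the HBOT libraries again lay wholly above NC. The log2 difference was 0.21 for CTX against NC (SE 0.15, adjusted p = 0.829 by limma), or 0.12 without CTX replicate 1 and 0.35 without CTX replicate 3, and 0.34 for HBOT against NC (SE 0.15, adjusted p = 0.425 by limma).

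Figla, the helix-loop-helix factor that drives the zona pellucida genes, overlapped between all 3 groups. Its values were 1.24, 0.818 and 1.15 FPKM in NC, 1.34, 1.81 and 0.885 in CTX and 1.49, 1.10 and 0.908 in HBOT. The difference between HBOT and NC was 0.06 (SE 0.19, adjusted p = 0.903 by limma), and it changed sign when NC replicate 2 (-0.03) or HBOT replicate 1 (-0.04) was left out.

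Sohlh1, a helix-loop-helix factor of primordial oocytes and of spermatogonia, was the lowest and most scattered member. It was at 1.48, 1.28 and 0.419 FPKM in NC, at 0.363, 1.52 and 0.590 in CTX and at 0.439, 0.497 and 1.01 in HBOT. Low and high libraries occurred in every group, with a standard deviation of 53.2%, 74.3% and 48.8% of the mean in NC, CTX and HBOT. Its log2 difference was negative in the 3 comparisons, at -0.19 for CTX against NC, -0.11 for HBOT against CTX and -0.30 for HBOT against NC, each with an SE of 0.30 and an adjusted p of at least 0.674 by limma. The first 2 of these values rested on single libraries, while HBOT against NC ran from -0.55 to -0.14 on leaving out 1 library. CTX against NC was -0.0013 without CTX replicate 1, and HBOT against CTX was -0.30 when the same library was left out, 0.15 on leaving out CTX replicate 2 and -0.05 on leaving out HBOT replicate 2.

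Taf4b, which encodes a subunit of the general transcription factor TFIID, differed from the DNA-binding factors in which libraries were high. The cell type that gave its RNA in whole ovary was not tested. It was at 4.36, 4.08 and 3.77 FPKM in NC, at 7.14, 3.31 and 3.89 in CTX and at 7.40, 5.47 and 5.36 in HBOT. Replicate 1 was the 1 CTX library above every NC library, whereas all HBOT libraries were. Its difference between CTX and NC, 0.13 (SE 0.24, adjusted p = 0.951 by limma), rested on CTX replicate 1 and was -0.14 without it. Between HBOT and NC it was 0.47 (SE 0.24, adjusted p = 0.462 by limma), and 0.53 without HBOT replicate 2.

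Among the RNA-binding genes, Elavl2 (ENSMUSG00000008489), a member of the Hu family that binds AU-rich RNA in oocytes and neurons, separated the groups most clearly. It was at 1.70, 1.40 and 1.17 FPKM in NC, at 2.56, 2.14 and 1.73 in CTX and at 2.61, 3.04 and 2.25 in HBOT. It was the 1 gene of the 10 whose CTX libraries all lay above the NC libraries, although CTX replicate 3 exceeded NC replicate 1 by a small margin. Among all genes tested, 13.2% had CTX libraries wholly above NC and 7.8% wholly below, which none of the 10 had. The log2 difference was 0.37 for CTX against NC (SE 0.16, adjusted p = 0.623 by limma) and 0.58 for HBOT against NC (SE 0.16, adjusted p = 0.298 by limma), or 0.50 without HBOT replicate 2.

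Ddx4, the germ cell RNA helicase also called Vasa, was at 1.87, 1.69 and 1.09 FPKM in NC, at 1.74, 2.22 and 1.42 in CTX and at 2.71, 2.53 and 1.83 in HBOT. The CTX libraries overlapped NC, and HBOT replicate 3 fell just below the highest NC library. The log2 difference was 0.13 for CTX against NC and 0.40 for HBOT against NC (SE 0.19 each, adjusted p = 0.934 and 0.441 by limma). Dazl, a translational regulator of germ cells, was at 1.77, 1.08 and 1.32 FPKM in NC, at 2.10, 2.02 and 1.37 in CTX and at 1.87, 2.28 and 1.95 in HBOT. Its HBOT libraries lay above NC, while CTX replicate 3 lay among the NC libraries. For Dazl these differences were 0.24 and 0.35 (SE 0.17 each, adjusted p = 0.819 and 0.443 by limma).

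Mael, which takes part in the piRNA pathway that silences transposons, showed no separation. It was at 1.55, 1.71 and 1.46 FPKM in NC, at 1.31, 1.78 and 0.734 in CTX and at 1.68, 1.31 and 1.58 in HBOT. The value of 0.734 FPKM in CTX replicate 3 was the lowest of the 9. The log2 difference was -0.20 for CTX against NC (SE 0.19, adjusted p = 0.883 by limma), and -0.02 without that library. It was -0.03 for HBOT against NC (SE 0.19, adjusted p = 0.960 by limma), and 0.03 without HBOT replicate 2.

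Uchl1 (ENSMUSG00000029223) had the widest difference between groups of the 10. It was at 50.0, 40.1 and 56.5 FPKM in NC, at 80.0, 81.7 and 55.1 in CTX and at 97.3, 90.4 and 89.7 in HBOT. The HBOT libraries lay above every CTX and NC library, and CTX replicate 3 lay just below the highest NC library. Means were 48.9 ± 8.26 FPKM in NC, 72.3 ± 14.9 in CTX and 92.4 ± 4.19 in HBOT (SD, n = 3 each). The log2 difference was 0.55 for CTX against NC (SE 0.18, adjusted p = 0.464 by limma), 0.37 for HBOT against CTX (SE 0.18, adjusted p = 0.710 by limma) and 0.92 for HBOT against NC (SE 0.18, adjusted p = 0.235 by limma). The last was the 29th smallest p among 13338 genes and was 0.93 without HBOT replicate 2. HBOT against CTX was 0.19 without CTX replicate 3. With a weight estimated for each library, HBOT against NC was 0.98 for Uchl1 and passed (adjusted p = 0.0343 by limma). With those weights 181 of the 13338 genes passed. Over the settings tried the adjusted p of Uchl1 ran up to 0.605 by limma.

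**Figure D1:**
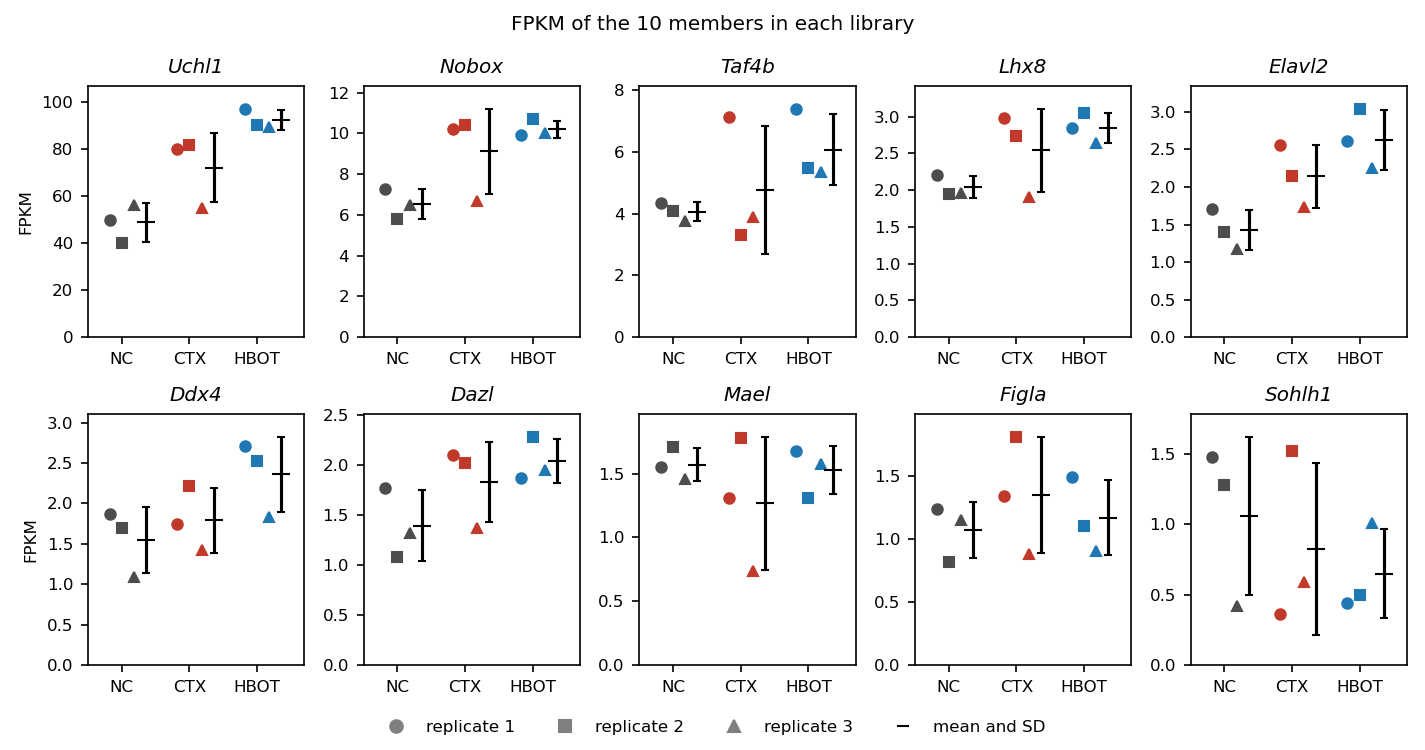
FPKM (vertical axes, from 0, each gene on its own scale) of the 10 members in the 3 NC, 3 CTX and 3 HBOT libraries, with symbols for replicates 1 to 3 and the group mean and SD in black. HBOT lies wholly above NC for Uchl1, Nobox, Taf4b, Lhx8, Elavl2 and Dazl, and CTX replicate 3 (red triangle) is near or below the NC libraries for most genes.

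Uchl1 and Elavl2 are also expressed in neurons, so 13 neuronal genes were set beside them. Of these, 6 stayed under 1 FPKM in all libraries (Gap43, Elavl3, Elavl4, Dbh, Nefl and Nefm) and 4 passed the filter (Tubb3, Syp, Th and Chga). The 13 summed to 11.7 to 12.5 FPKM in NC, 15.4 to 16.6 in CTX and 16.1 to 18.0 in HBOT, which in every library is below the FPKM of Uchl1 alone. The neuronal tubulin Tubb3 was the highest of the 13 by mean over the 9 libraries, at 6.37 ± 0.751 FPKM in NC, 9.34 ± 1.76 in CTX and 8.80 ± 2.36 in HBOT (SD, n = 3). In HBOT replicate 2 it was at 6.31 FPKM, where the 13 summed to 17.9 FPKM. Its log2 difference was 0.48 for CTX against NC (SE 0.20) and 0.39 for HBOT against NC (SE 0.20), or 0.58 without HBOT replicate 2. The summed neuronal level thus moved with Uchl1 between NC and the other groups. Within CTX the sum was 15.4, 16.1 and 16.6 FPKM in replicates 1 to 3, where Uchl1 was at 80.0, 81.7 and 55.1 FPKM. In HBOT against CTX the median log2 difference of the 4 neuronal genes was -0.03, or 0.10 without HBOT replicate 2, where Uchl1 was at 0.37. The part of neurons in the Uchl1 difference was not tested. The gene Uchl1os is annotated on the opposite strand and overlaps Uchl1 (GENCODE M21), and the counting is not stated to use strand, so reads of the pair cannot be told apart.

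Promoter sequence is shown for 5 of the genes, because these factors bind short motifs and members differ in how many they carry. The windows are the 250 bases before the RefSeq start site on GRCm38.p6, printed 5′ to 3′ on the strand of the gene. The deposited values rest on GRCm39, so sequences and values were joined by symbol only. Searched on both strands were the E-box CANNTG, bound by helix-loop-helix proteins such as FIGLA and SOHLH1, its forms CAGGTG and CACGTG, which are included in CANNTG, and the homeodomain sites TAATTG and TAATTA. Capitals mark E-boxes.
Uchl1, chr5:66675871-66676120, plus strand: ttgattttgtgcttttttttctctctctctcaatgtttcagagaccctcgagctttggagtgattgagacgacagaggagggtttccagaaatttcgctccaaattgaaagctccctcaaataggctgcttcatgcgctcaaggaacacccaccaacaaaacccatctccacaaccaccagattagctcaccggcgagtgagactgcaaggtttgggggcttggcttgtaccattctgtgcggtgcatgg
Nobox, chr6:43309555-43309804, minus strand: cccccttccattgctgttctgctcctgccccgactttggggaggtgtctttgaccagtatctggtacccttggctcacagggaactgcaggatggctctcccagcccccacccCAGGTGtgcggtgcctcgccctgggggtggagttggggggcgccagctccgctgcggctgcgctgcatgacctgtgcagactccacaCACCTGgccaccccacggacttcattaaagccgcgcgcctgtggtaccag
Sohlh1, chr2:25847249-25847498, minus strand: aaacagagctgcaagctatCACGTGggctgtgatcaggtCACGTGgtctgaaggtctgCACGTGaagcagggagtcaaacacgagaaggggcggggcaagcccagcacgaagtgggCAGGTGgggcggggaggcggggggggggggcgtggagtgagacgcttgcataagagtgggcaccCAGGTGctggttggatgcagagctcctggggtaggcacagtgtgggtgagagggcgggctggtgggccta
Mael, chr1:166238745-166238994, minus strand: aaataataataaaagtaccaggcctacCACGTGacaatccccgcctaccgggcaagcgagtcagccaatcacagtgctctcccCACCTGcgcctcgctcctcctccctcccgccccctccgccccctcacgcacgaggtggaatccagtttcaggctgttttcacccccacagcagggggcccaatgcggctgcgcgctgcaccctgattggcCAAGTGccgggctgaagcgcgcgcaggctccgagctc
Ddx4, chr13:112652311-112652560, minus strand: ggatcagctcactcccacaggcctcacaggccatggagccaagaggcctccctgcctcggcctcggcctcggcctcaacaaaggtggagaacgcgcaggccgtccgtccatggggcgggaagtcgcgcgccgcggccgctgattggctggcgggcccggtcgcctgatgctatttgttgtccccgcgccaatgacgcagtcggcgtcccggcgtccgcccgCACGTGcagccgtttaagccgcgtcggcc

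Windows of 9 of the 10 members were searched, Elavl2 having 6, and Taf4b was left out of the search. An E-box CANNTG was found in at least 1 window of 7 of the 9 genes, and in 66.2% of all 32851 windows of the same length. Member counts here are of genes, which had 14 windows among them, and the shares are of windows, so the measures are not alike. The Sohlh1 window holds 5 E-boxes, where the mean of all windows is 1.16, and 3 of the 5 are CACGTG. That form was also found once each in Mael and Ddx4, so that 3 of the 9 genes hold it, as do 6.02% of all windows. The Nobox window holds 2 E-boxes, both of the form CAGGTG as read on one strand or the other. CAGGTG was found in 4 of the 9 genes (Figla, Nobox, Sohlh1 and Mael) and in 17.2% of all windows. The windows of Uchl1 and Lhx8 hold no E-box, and none of the 9 genes had TAATTG or TAATTA, found in 7.17% and 4.84% of all windows. These matches describe letters within the window and say nothing of binding.

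CTX was compared with NC to find what the drug changed. Of the 10 members, 8 had a log2 difference above 0, where 59.5% of all genes tested did, and the exceptions were Mael and Sohlh1. The median of the 10 was 0.19 against 0.05 over all genes. By limma 0 members passed an adjusted p of 0.05, as did 0% of all genes. At an unadjusted p under 0.05 there were 3 members (Uchl1, Nobox and Elavl2), all higher in CTX, where 5.24% of all genes were higher and 2.74% lower at that level. CTX replicate 3 was the lowest CTX library for 8 of the 10 genes, all but Sohlh1 and Taf4b. Without CTX replicate 1 only 1 member (Uchl1) had an unadjusted p under 0.05. Without CTX replicate 3, 6 of the 10 had CTX libraries wholly above NC, where 23.0% of all genes then did, against the 1 gene with it.

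HBOT was compared with CTX to find what the oxygen treatment altered on top of the drug. Again 8 of 10 lay above 0, the exceptions being Figla and Sohlh1, where 38.4% of all genes did. The median was 0.17 against -0.07 over all genes. By limma 0 members passed, as did 0% of all genes, and 0 had an unadjusted p under 0.05, where 2.41% of all genes were higher and 3.67% lower at that level. Among the 10 only Uchl1 had HBOT libraries wholly above CTX, where 3.76% of all genes did, and 0 had them wholly below, where 6.44% did. Without CTX replicate 1 there were 3 such genes (Taf4b, Elavl2 and Uchl1), where 10% of all genes then were. Part of these differences rested on CTX replicate 3. Without it the median of the 10 was -0.01 and Nobox, Lhx8, Dazl and Mael each stood at -0.01, while Taf4b (0.24), Uchl1 (0.19), Ddx4 (0.17) and Elavl2 (0.11) stayed above 0.

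In the shared fit the HBOT against NC difference is the sum of the CTX against NC and HBOT against CTX differences. It was therefore the highest of the 3 for the genes above 0 in both, Uchl1, Nobox, Elavl2, Lhx8, Ddx4, Dazl and Taf4b. For 6 of the 10 (all of these but Ddx4) the HBOT libraries lay wholly above NC, where 10.9% of all genes did, and for 0 they lay wholly below, where 9.6% did. Each of the 6 has an exact permutation p of 0.1 (two-sided), the smallest that 3 against 3 libraries allow. Without HBOT replicate 2 the same 6 genes lay above, where 23.6% of all genes did. The median was 0.38 against -0.01 over all genes, 8 of 10 being above 0, where 47.6% of all genes were. By limma 0 members passed, as did 0% of all genes, while 3 (Uchl1, Elavl2 and Nobox) had an unadjusted p under 0.05, where 6.22% of all genes were higher and 5.65% lower at that level. The comparison shares its HBOT libraries with HBOT against CTX and its NC libraries with CTX against NC, so the 3 are not independent.

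**Figure D2:**
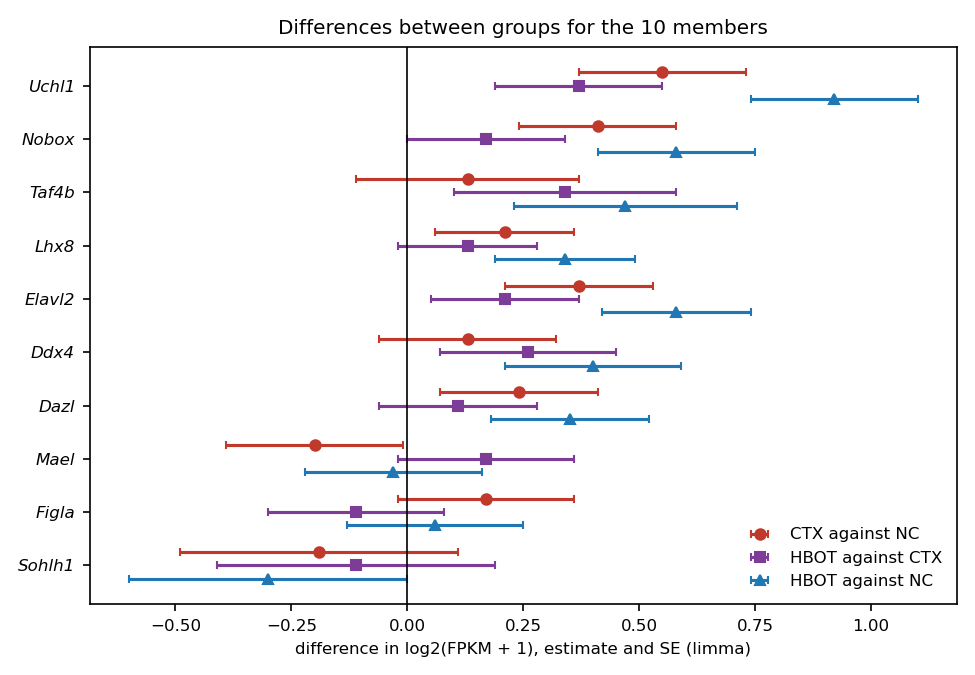
Difference in log2(FPKM + 1) between groups (horizontal axis) for each member, as the limma estimate with its SE, in red for CTX against NC, purple for HBOT against CTX and blue for HBOT against NC. The HBOT against NC estimates for Uchl1 (0.92), Elavl2 (0.58) and Nobox (0.58) are the farthest from 0, and Sohlh1 is below 0 in each comparison.

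Relative to NC, the median of the growing oocyte genes was higher by more than that of the early oocyte regulators in the same libraries. The 20 listed genes, of which Nobox and Figla are known upstream regulators for some, were all higher in CTX than in NC (median log2 difference 0.68, 0 passing by limma, 20 at an unadjusted p under 0.05) and in HBOT than in NC (0.81, 0 passing by limma, 19 at an unadjusted p under 0.05). Of all genes tested, 59.5% and 47.6% were higher in these comparisons, and 5.24% and 6.22% were so at an unadjusted p under 0.05. The growing oocyte list, like the other companion lists, was chosen with earlier results of these data known, so its counts are description only. Gdf9, an oocyte growth factor and a gene that depends on Nobox, stood at 38.4 ± 8.74 FPKM in NC, 67.8 ± 14.3 in CTX and 76.8 ± 7.49 in HBOT (SD, n = 3), with log2 differences from NC of 0.81 and 1.01. The oocyte linker histone H1f8 was at 0.78 and 0.96, the maternal factor Dppa3 at 0.60 and 0.61, and Nlrp5, part of the subcortical maternal complex, at 0.55 and 1.05. The egg coat genes Zp3 and Zp2, which depend on Figla, were at 31.4 ± 7.23, 54.1 ± 13.9 and 64.1 ± 5.35 FPKM and at 33.8 ± 4.57, 50.3 ± 10.3 and 57.8 ± 5.71 FPKM in NC, CTX and HBOT (SD, n = 3). Bmp15, the partner of Gdf9, was at 10.6 ± 1.24, 17.8 ± 4.47 and 20.8 ± 1.79 FPKM in the same order. None of these 3 genes passed in HBOT against NC (adjusted p = 0.241 for Zp3, 0.245 for Zp2 and 0.241 for Bmp15 by limma). Since log2(FPKM + 1) understates differences of low genes, and the members are low, the ratio of group mean FPKM was compared too. Its median was 1.25 for CTX over NC among the members, from 0.78 to 1.50, against 1.65 among the growing oocyte genes, from 1.28 to 1.87. For HBOT over NC it was 1.48, from 0.61 to 1.89, against 1.78, from 1.25 to 2.15. For HBOT over CTX the members had the higher median, at 1.16, from 0.79 to 1.31, against 1.08, from 0.98 to 1.42.

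**Figure D3:**
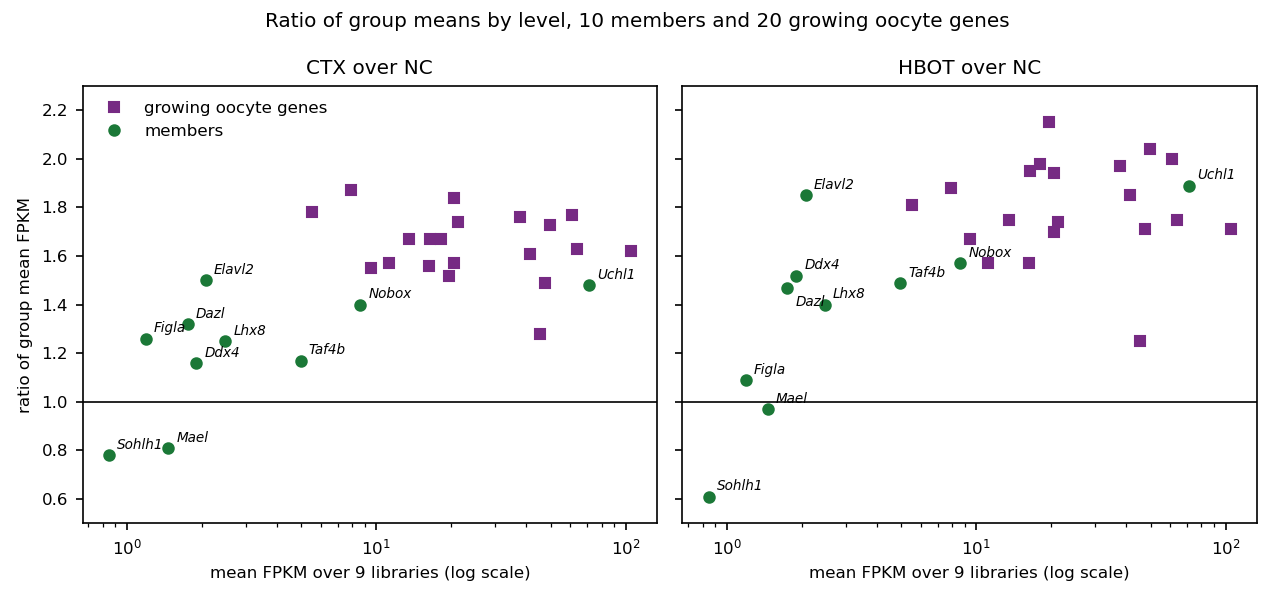
Ratio of group mean FPKM (vertical axis, a line marks 1) against the mean FPKM over 9 libraries (log scale) for the members (circles, named) and the 20 growing oocyte genes (squares), CTX over NC at the left and HBOT over NC at the right. Members run from 0.78 to 1.50 and growing oocyte genes from 1.28 to 1.87 in CTX over NC, and Uchl1 (1.89) and Elavl2 (1.85) are the highest members in HBOT over NC.

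Library by library, both lists moved together but not by the same amount. The median difference of the 10 members from their NC mean was -0.05 to 0.13 in NC, 0.39, 0.35 and -0.06 in CTX replicates 1 to 3, and 0.29 to 0.44 in HBOT. For the growing oocyte list it was -0.26 to 0.17 in NC, 0.80, 0.81 and 0.30 in CTX and 0.76 to 0.90 in HBOT. CTX replicate 3 was the lowest of the CTX and HBOT libraries for both lists, just below the NC range for the members and above it for the growing oocyte genes. The gap between the 2 medians was -0.24 to 0.16 in NC, 0.35 to 0.47 in CTX and 0.38 to 0.47 in HBOT, so that both exposed groups lay above NC and overlapped each other. The gap is on the log2(FPKM + 1) scale, on which the low members move less than high genes at an equal ratio. With a pseudocount of 0.1 in place of 1 the median differences of the members and the growing oocyte genes were 0.28 and 0.70 for CTX against NC, 0.24 and 0.14 for HBOT against CTX, and 0.55 and 0.85 for HBOT against NC.

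**Figure D4:**
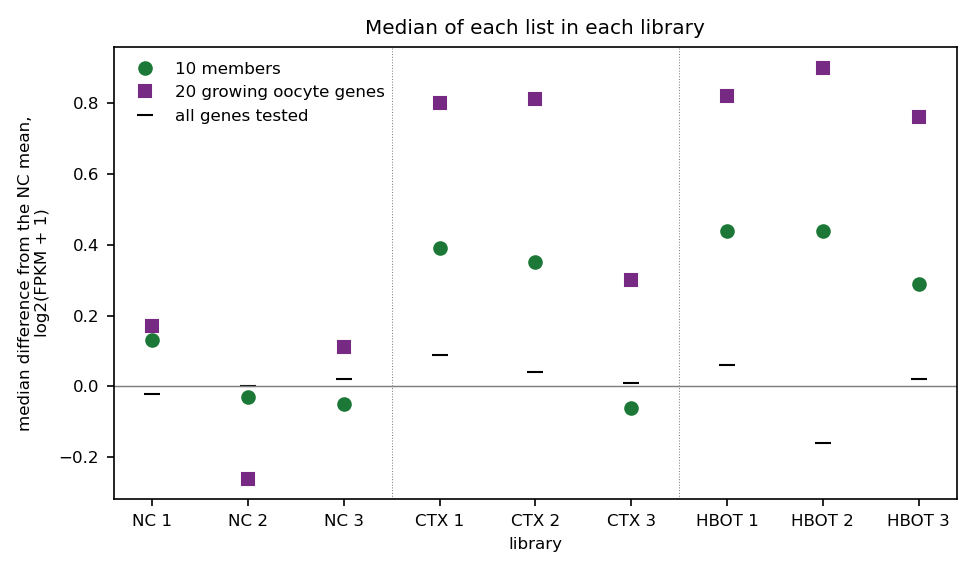
Median difference from the NC mean in log2(FPKM + 1) (vertical axis) of the 10 members, of the 20 growing oocyte genes and of all 13338 genes tested, for each of the 9 libraries. The members reach 0.29 to 0.44 in HBOT and -0.06 in CTX replicate 3, below the growing oocyte genes in every CTX and HBOT library.

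Other early germ cell regulators were listed to widen the view. Of 15 such genes 11 passed the filter. Of the 11, 10 were higher in CTX than in NC (median 0.33) and 7 in HBOT than in NC (0.23), with 0 passing by limma and 3 and 4 at an unadjusted p under 0.05. Among all genes tested 59.5% and 47.6% were higher in the 2 comparisons, and 5.24% and 6.22% were so at an unadjusted p under 0.05. Without CTX replicate 1 the first median was 0.19 with 9 of 11 above 0 (55.6% of all genes). Without HBOT replicate 2 the second was 0.31 with 10 of 11 above 0 (58.2% of all genes). In HBOT against CTX 5 of the 11 were above 0 (median -0.09, 0 passing by limma), where 38.4% of all genes were. For that comparison 8 of 11 were above 0 without HBOT replicate 2 (median 0.07), where 49.2% of all genes were. Gtsf1, a small zinc finger protein of germ cells, was at 3.55 ± 0.542 FPKM in NC, 5.85 ± 1.15 in CTX and 6.48 ± 0.451 in HBOT (SD, n = 3), a log2 difference from NC of 0.58 and 0.72. The oocyte RNA-binding gene Ybx2 stood at 0.57 and 0.74, the bromodomain gene Brdt at 0.41 and 0.31, and the pluripotency factor Pou5f1, which depends on Nobox and Lhx8, at 0.34 and 0.66. Dnd1, an RNA-binding factor of germ cells, went the other way in HBOT, at 5.75 ± 0.262 FPKM in NC, 8.07 ± 1.17 in CTX and 5.15 ± 1.75 in HBOT (SD, n = 3), and its HBOT libraries lay wholly below CTX (log2 difference -0.60, SE 0.22, adjusted p = 0.710 by limma). HBOT replicate 2 was the lowest of these for Dnd1, and the difference was -0.34 without it. The receptor Kit, through which granulosa cells signal to the oocyte, was at 14.5 ± 1.22, 18.8 ± 4.43 and 14.5 ± 8.87 FPKM, Foxo3, which holds primordial follicles dormant, at 12.3 ± 1.04, 12.1 ± 1.16 and 11.2 ± 3.71 FPKM, and the histone demethylase Kdm1b at 8.27 ± 1.12, 8.49 ± 1.63 and 11.1 ± 4.33 FPKM in NC, CTX and HBOT (SD, n = 3). HBOT replicate 2 set these HBOT means apart, being at 4.38 FPKM for Kit, 7 for Foxo3 and 16.1 for Kdm1b, and without it they were 19.5, 13.4 and 8.61 FPKM. Sohlh2, the partner of Sohlh1, and Nanos3 stayed under 1 FPKM in all libraries.

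The piRNA pathway to which Mael belongs was sparsely expressed, with 7 of 17 listed genes passing the filter. On the log2(FPKM + 1) scale the difference was above 0 for all 7 in CTX against NC (median 0.21), where Tdrd5 was at 0.97 as a ratio of mean FPKM, and for 4 of 7 in HBOT against NC (0.07), with 0 passing by limma and 1 and 2 at an unadjusted p under 0.05. The shares of all genes above 0 were 59.5% and 47.6%, and 5.24% and 6.22% were higher at an unadjusted p under 0.05. Without CTX replicate 1 the first median was 0.13, and without HBOT replicate 2 the second was 0.11 with 6 of 7 above 0 (58.2% of all genes). In HBOT against CTX 1 of the 7 was above 0 (median -0.20, 0 passing by limma), where 38.4% of all genes were. For that comparison 3 of 7 were above 0 without HBOT replicate 2 (median -0.04), where 49.2% of all genes were. Tdrd12, a Tudor protein of the pathway, had the largest difference from NC of the 7, at 1.18 ± 0.217 FPKM in NC, 2.56 ± 0.559 in CTX and 2.49 ± 0.390 in HBOT (SD, n = 3), a log2 difference of 0.70 and 0.68. Its relatives Tdrd1 (2.26 ± 0.0811, 2.79 ± 0.536 and 3.35 ± 0.281 FPKM), Tdrd7 (7.44 ± 0.830, 8.01 ± 0.607 and 7.30 ± 1.29 FPKM) and Tdrd5 (13.4 ± 5.65, 13.0 ± 1.13 and 9.60 ± 4.27 FPKM) differed less in NC, CTX and HBOT (SD, n = 3). Tdrd5 was at 4.90 FPKM in HBOT replicate 2, and its HBOT mean was 12.0 FPKM without it. Of the 18 meiotic chromosome genes 3 passed the filter. Syce2 was at 9.84 ± 2.33, 12.1 ± 1.66 and 13.3 ± 1.54 FPKM, Ythdc2 at 2.22 ± 0.0651, 2.46 ± 0.220 and 2.32 ± 0.472 FPKM and Msh5 at 2.21 ± 0.482, 1.87 ± 0.151 and 1.40 ± 0.220 FPKM in the same order.

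Markers of other ovarian cells were summed in each library, and their part in the member differences was not tested. The 5 corpus luteum markers summed to 2323 to 2818 FPKM in NC and 323 to 462 in CTX, and in HBOT to 350.2 and 506 in replicates 1 and 2 but 3065 in replicate 3. The 5 leukocyte markers summed to 25.5 to 31.1 FPKM in NC, 30.8 to 43.6 in CTX and 43.5 to 50.2 in HBOT, so that HBOT lay above NC. The sums of the other 5 lists overlapped between NC and each of the other groups. In NC, CTX and HBOT the 9 granulosa markers summed to 1455 to 2130, 1574 to 2634 and 1895 to 2386 FPKM, the 5 theca and steroidogenic markers to 6163 to 9007, 4301 to 9111 and 5081 to 6191 FPKM, and the 6 stroma and smooth muscle markers to 502 to 615, 480 to 547 and 571 to 698 FPKM. The 4 endothelial markers summed to 45.6 to 51.8, 41.7 to 48.0 and 42.9 to 51.7 FPKM, and the 6 oviduct and surface epithelium markers to 24.2 to 42.7, 18.6 to 44.9 and 21.4 to 31.6 FPKM. Of all these markers Foxj1 and Pax8, of oviduct epithelium, stayed under 1 FPKM in all libraries.

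The genes whose pattern was most like that of the members were named by the Pearson correlation, over the 9 libraries, with the mean of the standardised members, among 11534 named genes of at least 2 FPKM. Pou5f1 (0.96), Rnf122 (0.96), Arhgef16 (0.95), Slc30a3 (0.94), Fbxw19 (0.94), Rps19 (0.94), Ybx2 (0.94) and Cpa1 (0.93) led. By the Spearman rank correlation Pou5f1, at 0.67, was the lowest of these and Fbxw19, at 0.90, the highest. Pou5f1 and Ybx2 are oocyte genes of the lists above, and Rps19 encodes a ribosomal protein with many processed copies, so its reads are uncertain. After removal of the group means the leading genes were Kcne3 (0.99), Klhl8 (0.99), Zdhhc14 (0.97), Bcl2 (0.96), Gtsf1 (0.96), Wnk2 (0.96), Rps19 (0.96) and Oas1c (0.95). With 9 libraries and so many genes these values describe likeness only. Among the members themselves, Lhx8 (0.94), Nobox (0.92), Dazl (0.87), Elavl2 (0.84), Ddx4 (0.81) and Uchl1 (0.81) followed the mean of the other 9 members over all libraries, Figla (0.55), Taf4b (0.48) and Mael (0.32) less so, and Sohlh1 did not (-0.16). After removal of the group means the order differed, with Figla (0.76) and Mael (0.69) above Uchl1 (0.67) and Ddx4 (0.64), and Taf4b (0.21) and Sohlh1 (0.14) lowest.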

How the data were processed

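RNA of 9 mouse ovary samples was selected for poly(A) and sequenced in pairs (VAHTS mRNA-seq v3 libraries, per the labels' protocols). The authors deposited 1 table of FPKM values. Fastp 0.23.4 and build GRCm39 are named, per the submitters' processing notes, and for the aligner, counter and annotation the sources used here give none. Column sums ran from 394046 to 420058. The smallest values above 0 (1e-06 to 1.9e-05 FPKM) are far below what 1 read would give, so whole reads could not be recovered, depth is unknown and only the spread between libraries shows the precision.

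A pseudocount of 1 was added before log2. The filter of 1 FPKM in 3 libraries kept 13338 of 22544 rows. With limma 3.58.1 (R 4.3.3, eBayes with trend) the 3 group means were estimated from the 9 libraries at once, leaving 6 residual degrees of freedom. Benjamini-Hochberg adjustment ran over all genes tested in a comparison, and calls were made under 0.05. The procedure was tested on simulated data. The members and the 13 companion lists were chosen with earlier results of these data known. Besides the members, the 4 highest genes of each germ cell or neuronal list, the 2 with the smallest p in each comparison, the leading cell type markers and the 8 most alike genes could be named, and log2 differences are given for some of these. Other settings were a pseudocount of 0.1, omitting the filter, a filter on the mean, TPM, median-of-ratios scaling, fits of 2 groups only, a replicate block, library weights and leaving out each library. Figures were drawn with matplotlib 3.10.9 in Python 3.11.15.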

Additional observations from a re-analysis of the deposited data

How the results depend on the processing

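For every setting tried, 0 of the 10 members passed in CTX against NC and in HBOT against CTX. In HBOT against NC 1 passed with library weights (Uchl1), where 181 of 13338 genes did, and 0 members passed otherwise. The median of the members kept its sign in CTX against NC (0.15 to 0.33) and HBOT against NC (0.32 to 0.55, the 0.55 with a pseudocount of 0.1, 0.33 to 0.48 leaving out 1 library). In HBOT against CTX it ran from -0.01 to 0.24, and that of the growing oocyte list from -0.03 to 0.25, both turning without CTX replicate 3. Leaving out 1 library also turned, in CTX against NC, Ddx4 (-0.0033 to 0.23) and Taf4b (-0.14 to 0.32). In HBOT against CTX it turned Dazl (-0.01 to 0.18), Figla (-0.25 to 0.03), Nobox (-0.01 to 0.27), Sohlh1 (-0.30 to 0.15), Lhx8 (-0.01 to 0.22) and Mael (-0.01 to 0.33), and in HBOT against NC Figla (-0.04 to 0.15) and Mael (-0.07 to 0.03). Taf4b in CTX against NC was at -0.04 with library weights and at -0.14 without both HBOT replicate 2 and CTX replicate 1, a setting added after seeing the data. Mael in HBOT against NC was at 0.03 under both. The cause was not tested. Sohlh1 could not be tested under the filter on the mean, which it fails.

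Over all genes, the 0 calls in CTX against NC became 31 in a fit of 2 groups, 123 with library weights and 16 without both libraries (0 to 9 leaving out 1). In HBOT against CTX they became 1 with no filter, 5 with weights and 2 without both (0 to 1 leaving out 1), and in HBOT against NC 1 with no filter and 181 with weights (0 to 3 leaving out 1). Residual correlations between libraries of different groups ran from -0.287 to 0.156 for same-numbered pairs and from -0.299 to 0.409 for the others. With 3 libraries a group these values cannot decide whether the numbers pair the libraries. With replicate number as a block the median of the members was 0.19, 0.17 and 0.38 in the 3 comparisons and 0 genes were called. Unknown depth limits the 6 members under 2.1 FPKM most.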
